A study of Homo sapiens with 12 samples.

Results

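The genes described here build and serve the primary cilium or carry Hedgehog signals through it. The set of 50 genes was given by name: 12 subunits of the intraflagellar transport (IFT) trains, 7 BBSome subunits, 2 chaperonin-like BBS genes, 2 ARF-like GTPases, 5 motor subunits, 14 transition zone genes, 4 genes of the basal body and axoneme and 4 Hedgehog genes. The rule uses no measured value, though the set was proposed with earlier results of these data known. Of these, 48 had normalized counts in the deposited table of 14862 genes. TMEM216 and SMO did not.

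The RNA came from parental hTERT-RPE1, a human retinal pigment epithelial line made immortal with telomerase and widely used to study primary cilia. Cells received 20 nM siRNA overnight in 4 groups of 3 libraries each: a negative control siRNA (siNeg), siCENPF, siFOXM1, and siCENPF with siFOXM1 (here called both siRNAs). CENPF is a kinetochore protein and FOXM1 a transcription factor of mitotic genes. Cells were collected 48 h later, and polyA RNA was sequenced. The labels number the libraries 1 to 3 in each group and do not say whether a number is a culture, a day or a preparation, so p-values measure the spread between these libraries, which may be technical. The labels do not say whether 20 nM applied to each siRNA or to their sum, nor which siRNA sequences were used. The cells were a bulk sample, in which fewer cells with a transcript and less of it per cell cannot be told apart, and no cilium was measured.

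A primary cilium is a single microtubule projection that grows from the mother centriole, then called the basal body. Kinesin-2 carries IFT-B trains to the tip, cytoplasmic dynein-2 with IFT-A brings them back, the BBSome moves membrane cargo, and the transition zone at the base acts as a gate. In vertebrates the Hedgehog receptor PTCH1 keeps the transducer SMO out of the cilium until ligand binds. Without ligand GLI3 is mainly cut to a repressor, and with active SMO the GLI2 and GLI3 proteins act as activators. Many ciliary genes carry the X-box, the DNA motif that RFX factors bind.

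The promoter letters are shown first because they show which of these genes hold the letters of a known ciliary element. RefSeq promoters (GRCh38.p14, 250 bases before to 50 after each annotated start) were matched for 46 of the 50 genes, with 60 windows. The X-box was searched on both strands as GTNNCC followed by GNAAC with 1 to 4 bases between them. Matching letters were found in 11 of the 46 genes (23.9%), against 6.80% of 9014 genes with normalized counts and 6.08% of all 27305 genes searched. The 11 were IFT57, IFT74, IFT122, ARL6, DYNC2LI1, TMEM231, TCTN1, TCTN3, B9D1, AHI1 and CEP41. The GLI site TGGGTGGTC was in 2 of the 46 (4.35%), PTCH1 and TMEM216, against 0.297% of all genes. Windows of 30 bases on the gene's strand follow, with the match in capitals.
TCTN1, chr12:110614121-110614150 (+): ctgtcgcgGTTGCCGGGCAACgcgctgtcc
TCTN3, chr10:95694121-95694150 (-): cactgacgGTTGCCAGGCAACggaggcacg
IFT57, chr3:108222406-108222435 (-): gtccggtgGTCGCCTGGTAACcggtcgtgg
IFT122, chr3:129440205-129440234 (+): catgtacGTTGCCAGGGGTAACgcaggtag
CEP41, chr7:130441154-130441183 (-): gtcccgcGTTGCCCTTGGCAACcattgagc
DYNC2LI1, chr2:43773986-43774015 (+): gatgcccGTCTCCCCACGCAACcgcggccg
PTCH1 (GLI site), chr9:95509419-95509448 (-): gttgcctaccTGGGTGGTCtctctactttg
These matches are descriptions of the letters. No binding was measured. Letters of elements linked to FOXM1 target promoters were counted too: the forkhead word TGTTTAC was in 4.35% of them against 3.46% of the genes with normalized counts, the cell-cycle homology region words TTTGAA in 8.70% against 13.8% and TTTAAA in 13.04% against 11.3%, and the E2F word TTTCCCGC in 0 of the 46 against 3.36%.

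The target transcripts were lower where the labels say they were targeted. CENPF stood at 7797, 9537 and 7993 normalized counts in siNeg and at 827 to 1017 in siCENPF, and FOXM1 at 4186, 4438 and 4763 in siNeg and at 491 to 816 in siFOXM1. With both siRNAs CENPF stood at 1284 to 1360 and FOXM1 at 729 to 822. CENPF was thus lowered less with both siRNAs than with siCENPF alone. The libraries held 13671250 to 35411230 reads in genes. Normalized counts are values scaled by the authors, by a method the sources here do not give, with similar sums per library. Markers of other cell types were mixed. The multiciliated-cell genes FOXJ1, DNAI2, RSPH1 and TEKT1 and the blood genes CD3E, HBB and HBA1 were listed at 0 FPKM in all 12 libraries. Of the 13 multiciliated-cell genes 11 were below 0.1 FPKM, while CCDC39 stood at 0.606 to 1.03 and DNAH5 at 0.0884 to 0.203. Mesenchymal markers summed to 670 to 747 FPKM, led by VIM at 587 to 688, and the epithelial keratin KRT18 stood at 27.2 to 41.6. Below 0.1 FPKM were 3 of the 8 mesenchymal genes (COL1A2, DCN and LUM) and 3 of the 6 epithelial ones (KRT19, CDH1 and EPCAM). Of the 12 markers of differentiated retinal pigment epithelium, 7 were below 0.1 FPKM and RPE65 and TYR were at 0, while BEST1 stood at 26.9 to 62.4 and made up most of the list's sum of 28.8 to 64.3. The 12 proliferation genes had a median log2 difference from siNeg of -0.14 in siCENPF, -0.23 in siFOXM1 and -0.27 with both siRNAs, where 0, 2 and 2 of them stood above 0. Of these CCNA2 and CCNB1 fell in siFOXM1 and with both siRNAs (limma adjusted p = 0.0054 to 0.014). Limma with the replicate number as a block called 3 of the 12 lower in siCENPF. In siFOXM1 it called 6 lower and 1 higher, and with both siRNAs 7 lower and 0 higher. The 13 mitochondrially encoded mRNAs had medians of 0.11, 0.13 and 0.07. Limma with the block called 2, 3 and 0 of these mRNAs higher, and 0 without it. The 5 mesenchymal markers tested had medians of 0.08, 0.27 and 0.22. Limma with the block called 0, 2 and 3 of these markers higher, and none without it. In siFOXM1 these were COL1A1 at log2 0.92 (adjusted p = 2.22e-05) and CDH2 at 0.28 (0.000248). Of all genes tested, 4.52%, 8.72% and 7.9% were called with the block in the 3 comparisons. The part of these differences in the results below was not tested.

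Most of these genes were expressed at low to moderate levels in control cells. As reads per kilobase of merged exons, scaled to the reads in genes of the library (RPKM, computed here), the 48 genes had a median of 2.51 in siNeg, from 0.10 for PTCH1 to 24.2 for TCTN3, and all 14398 genes with a length a median of 5.42. The anterograde motor subunit KIF3B (12.6 ± 0.783, SD, n = 3 libraries), the GTPase ARL3 (16.8 ± 2.57), which releases lipidated cargo in the cilium, and the IFT-B subunit IFT57 (11.1 ± 2.27) were the other 3 at or above 10 RPKM. IFT27 (0.208 ± 0.0209), BBS1 (0.214 ± 0.0998), TMEM67 (0.712 ± 0.113), NPHP4 (0.869 ± 0.0562) and PTCH1 were below 1. By role, the median level was 4.14 RPKM for IFT-B, 1.64 for IFT-A, 2.27 for the BBSome, 4.57 for motors, 2.33 for the transition zone and 2.59 for the basal body. Subunits of one complex differed widely: BBSome genes ran from 6.32 RPKM for BBS7 to 0.214 for BBS1. The 2 IFT-A genes stood close together, with IFT140 at 1.61 ± 0.625 and IFT122 at 1.66 ± 0.132. For BBS1, 64.5% of exon bases lie in exons of other annotated genes, so its reads are uncertain, and the same holds in lesser part for IFT80 (35.7%), TTBK2 (26.2%), TMEM237 (23.3%) and BBS5 (21.9%).

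**Figure D1:**
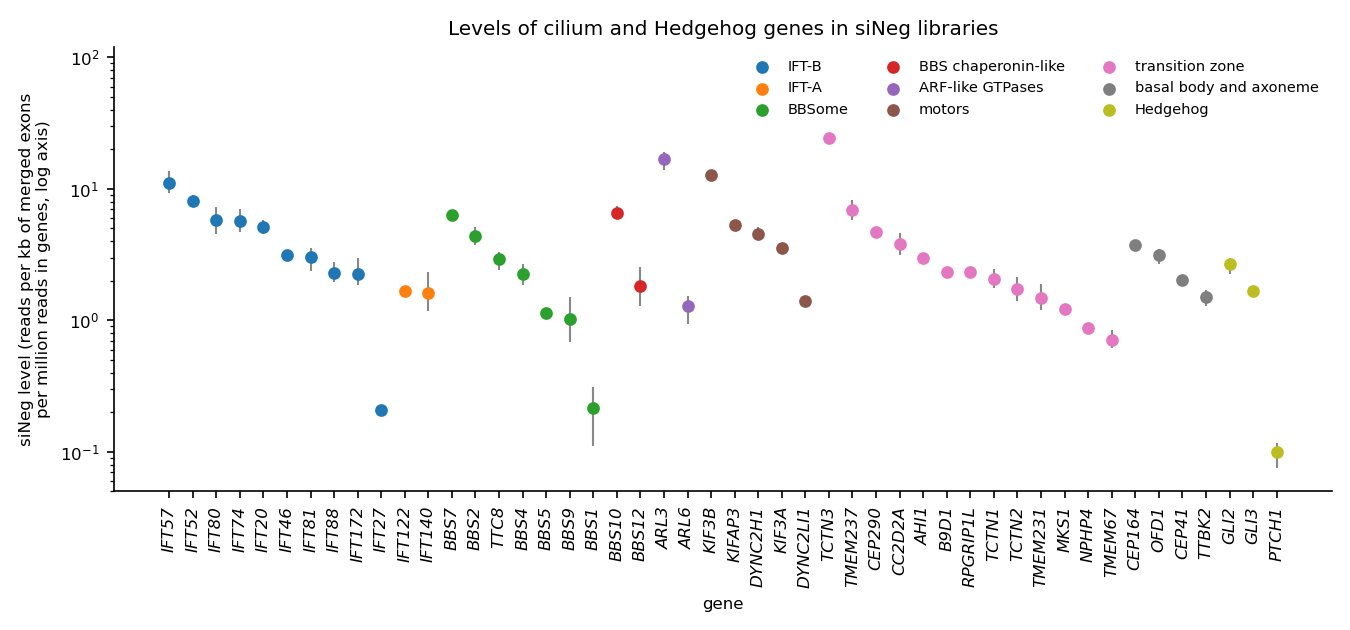
Mean level in the 3 siNeg libraries (points; lines span the lowest to the highest library), in reads per kb of merged exons scaled to the reads in genes (RPKM), on a log axis, for 48 genes coloured by role. TCTN3 stands highest at 24.2 and PTCH1 lowest at 0.10, with a median of 2.51.

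The 2 genes without normalized counts were near or at 0. SMO, the transducer of the Hedgehog pathway, was listed at 0 FPKM in all 12 libraries. TMEM216, a transition zone membrane protein, was listed at 0 in 4 libraries and reached 0.0305 FPKM, which corresponds to 0 to 5 reads per library and 16 in all. An exact 0 in this table can also come from how reads were assigned, which was not tested.

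Knockdown moved few of these genes. Counted by limma with Benjamini-Hochberg adjusted p below 0.05 and no term for the replicate number, 0 of 48 changed in siCENPF against siNeg (0.337% of all 14857 genes tested did), 1 in siFOXM1 (0.66% of all genes) and 0 with both siRNAs (0.458%). With the replicate number of the labels as a block, which the data show to pair the libraries, 1 changed in siCENPF (4.52% of all genes), 2 in siFOXM1 (8.72%) and 4 with both siRNAs (7.9%). At an unadjusted p below 0.05 without the block, 2, 3 and 4 of the 48 did. The share of all genes at that threshold is not given here, so these counts cannot be read against it. Counts of 1, 2 and 4 of 48 with the block are near or below the shares of all genes. The median log2 fold change of the 48 was 0.02 in siCENPF, 0.04 in siFOXM1 and 0.07 with both siRNAs, with 25, 27 and 34 of 48 above 0. Over all genes those medians were within 0.01 of 0 and 49.3% to 49.8% stood above it. The 95% intervals of the fit without the block lay within 1.5-fold in either direction for 35, 37 and 33 of the 48 genes. With the block they did so for 43, 44 and 39. The 3 comparisons share the siNeg libraries, so their values are not independent of each other.

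Counted by libraries that did not overlap siNeg, 2 of the 48 genes were higher in siCENPF (KIF3B and NPHP4; 4.87% of all genes were) and 1 lower (KIFAP3; 4.44%). In siFOXM1 5 were higher (KIF3B, RPGRIP1L, CEP164, TTBK2 and PTCH1; 6.56% of all genes) and 2 lower (KIFAP3 and AHI1; 6.83%). With both siRNAs 5 were higher (KIF3B, DYNC2LI1, TMEM67, GLI3 and PTCH1; 6.35%) and 1 lower (KIFAP3; 6.58%). KIF3B and KIFAP3 were thus apart from siNeg in all 3. The 26 genes with a larger adjusted p than those described singly below, KIF3A among them and GLI2 not counted, lay between log2 -0.21 (OFD1) and 0.20 (NPHP4) in siCENPF, -0.22 (BBS4) and 0.20 (IFT20) in siFOXM1, and -0.12 (AHI1) and 0.32 (BBS12) with both siRNAs. None of these 26 passed, with a smallest adjusted p with the block of 0.266.

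Between knockdown groups, limma without the block called 0 of the 48 genes in siFOXM1 against siCENPF (0.458% of all genes), with both siRNAs against siCENPF (0.0808%) and with both against siFOXM1 (0.00673%). With the block it called 2 (7.57% of all genes), 0 (1.46%) and 0 (0.296%). Libraries did not overlap for 2 higher genes (OFD1 and TTBK2; 5.8% of all genes) and 1 lower (AHI1; 5.92%) in siFOXM1 against siCENPF. With both siRNAs against siCENPF 4 were higher (IFT172, ARL6, TCTN2 and TTBK2; 3.7%) and 1 lower (AHI1; 3.73%), and against siFOXM1 2 were higher (BBS12 and GLI3; 3.22%) and 1 lower (KIF3B; 3.57%).

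**Figure D2:**
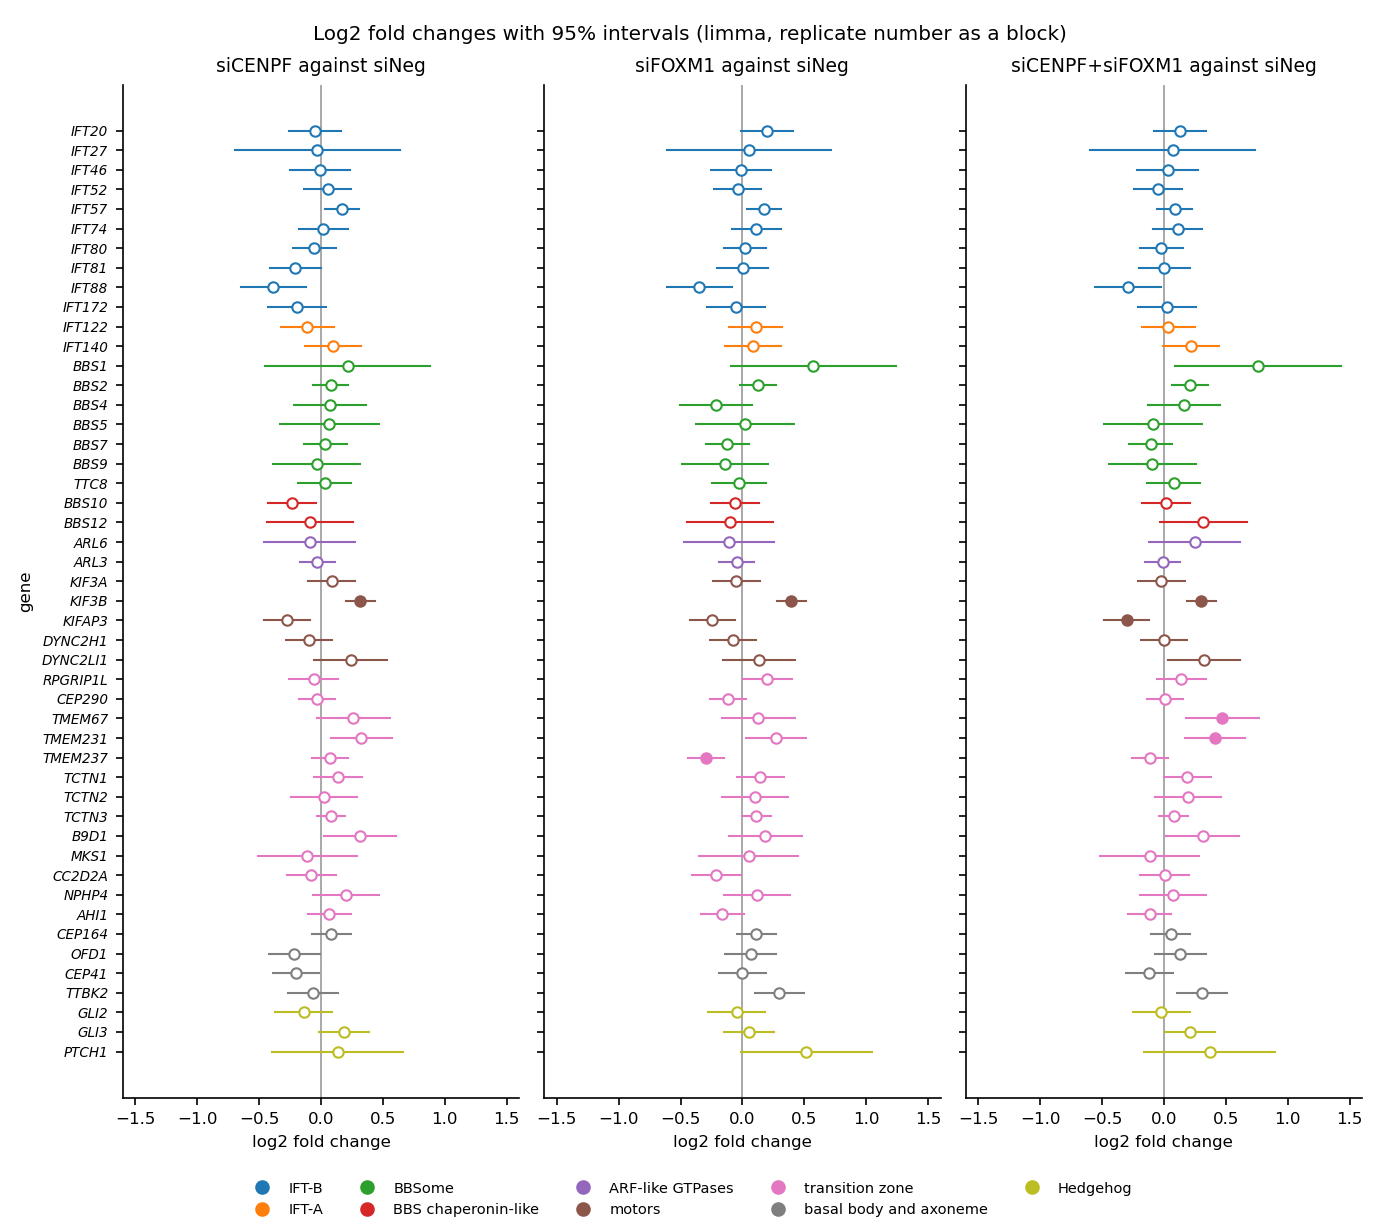
Log2 fold change against siNeg (x axis) of the 48 genes (y axis, coloured by role) in each knockdown group, with 95% intervals from limma with the replicate number as a block; filled points have adjusted p below 0.05. KIF3B is filled in all 3 panels, TMEM237 in siFOXM1, and KIFAP3, TMEM67 and TMEM231 with both siRNAs.

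The motor genes held the one change that passed without the block. KIF3B (ENSG00000101350, chromosome 20, 32277664 to 32335011, plus strand, hg38) encodes a motor subunit of heterotrimeric kinesin-2. It stood at 1480, 1528 and 1386 normalized counts in siNeg, at 1950, 1753 and 1781 with siCENPF, 1891, 1978 and 1906 with siFOXM1 and 1819, 1777 and 1823 with both siRNAs. Each of the 9 knockdown libraries was above each siNeg library. In siFOXM1 KIF3B rose by log2 0.40 (1.32-fold; limma adjusted p = 0.0235, and 3.35e-05 with the block). The rise in siCENPF was log2 0.32 (1.25-fold; adjusted p = 0.117, and 0.00077 with the block), and with both siRNAs log2 0.30 (1.23-fold; adjusted p = 0.128, and 0.000932 with the block). The authors' deposited tables give KIF3B log2 changes of 0.32, 0.40 and 0.30 with adjusted p of 1.00, 0.269 and 0.843, and 0 of these 48 genes below 0.05 in any of the 3. Without the block, the siFOXM1 call was lost on leaving out siNeg replicate 1 or 3 or any siFOXM1 library (adjusted p = 0.0869, 0.114, 0.0785, 0.106 and 0.105) and on fitting only those 2 groups (0.116). With the block it was kept in 15 of 15 such fits, while the siCENPF call was lost without all libraries numbered 1 (0.0623) and the call with both siRNAs without those numbered 3 (0.0683).

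KIF3B was not higher with both siRNAs than with either alone. Its value with both siRNAs differed from siFOXM1 by log2 -0.09 (95% interval with the block -0.21 to 0.03) and from siCENPF by -0.02 (-0.13 to 0.10). The interaction term, the change with both siRNAs minus the sum of the single changes, was -0.41 (adjusted p = 0.818 without and 0.00851 with the block). In the fit with the block 0.841% of all genes had such an interaction, and of the 48 genes KIF3B alone did. It was lost without siFOXM1 replicate 2 (0.0575), replicate 2 of the group with both siRNAs (0.0524), all libraries numbered 1 (0.241) or all numbered 3 (0.173). The knockdown of CENPF was not equal: its transcript was log2 0.55 higher with both siRNAs than in siCENPF (limma adjusted p = 0.000188 with the block).

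The partner subunits of KIF3B gave other values. KIF3A, the other motor subunit, stood at 466, 456 and 475 normalized counts in siNeg, 450, 549 and 489 with siCENPF, 430, 527 and 403 with siFOXM1 and 472, 463 and 442 with both siRNAs. These groups overlap, and its log2 changes were 0.09, -0.05 and -0.02. KIFAP3, the accessory subunit that binds cargo, stood at 527, 488 and 483 in siNeg, 461, 423 and 359 with siCENPF, 416, 420 and 429 with siFOXM1 and 420, 418 and 378 with both siRNAs. All 9 knockdown libraries were below the siNeg libraries. KIFAP3 fell by 0.30 on the log2 scale with both siRNAs when the block was included (limma adjusted p = 0.0357, and 0.447 without the block), and its values of -0.28 in siCENPF and -0.24 in siFOXM1 did not pass (adjusted p = 0.0786 and 0.0963 with the block). The call with both siRNAs was kept in 7 of 15 fits and lost without siNeg replicate 1 or 3, without any library of that group and without all libraries of any number (adjusted p = 0.0516 to 0.244). In a list of 17 further IFT and motor genes, limma with the block called KIF3C, another kinesin-2 motor gene, at log2 -0.23 in siCENPF and WDR19, an IFT-A subunit, at 0.35 with both siRNAs (adjusted p = 0.0419 and 0.0378), and none without the block.

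The dynein-2 genes, which drive the return journey, did not pass. DYNC2LI1, the light intermediate chain, stood at 117, 124 and 128 normalized counts in siNeg, 140, 175 and 126 with siCENPF, 115, 166 and 130 with siFOXM1 and 141, 190 and 136 with both siRNAs. With both siRNAs its libraries did not overlap siNeg (log2 0.32, limma adjusted p = 0.176 with the block). DYNC2H1, the heavy chain, was at 1227 to 1431 in siNeg and between 1038 and 1373 in the knockdown groups.

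**Figure D3:**
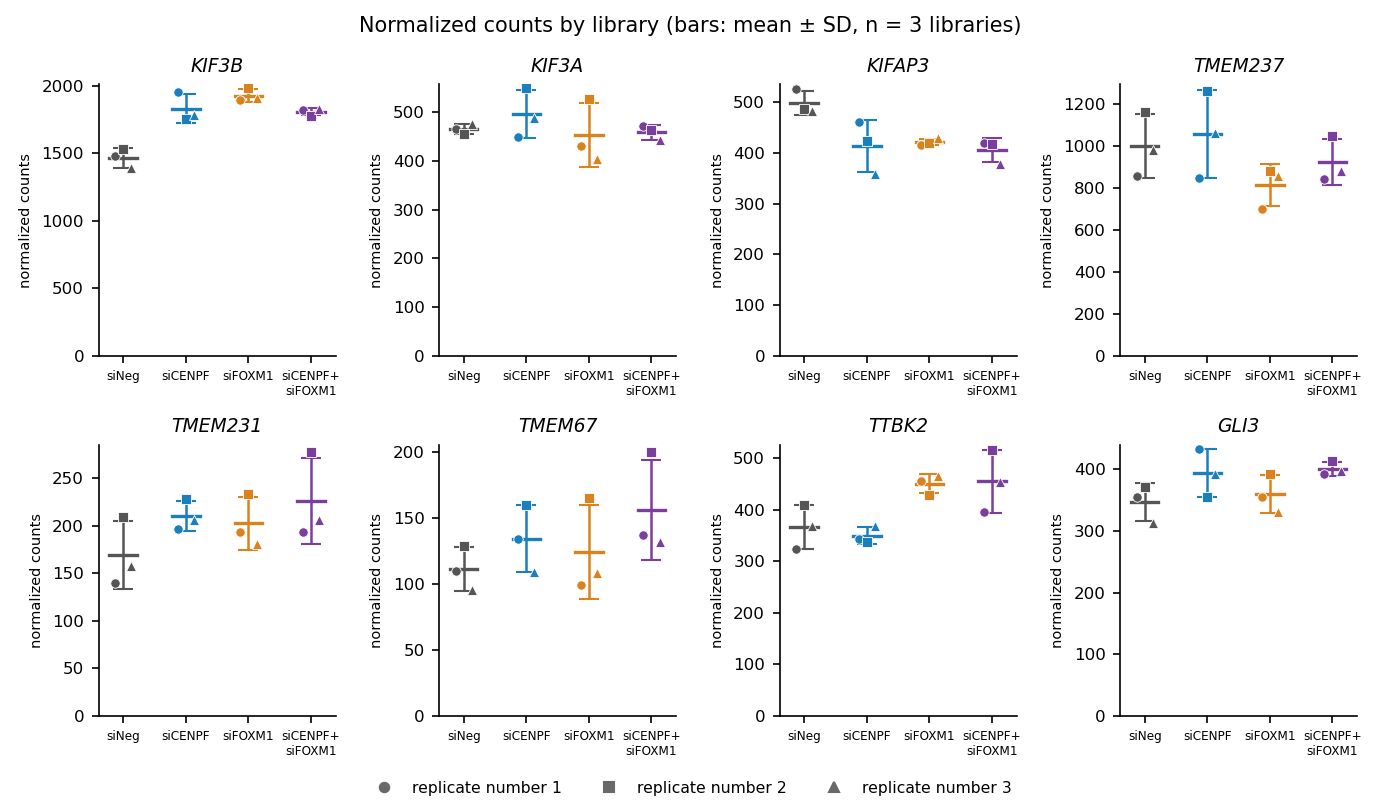
Normalized counts (y axis, from 0) of 8 genes in each library by siRNA group (x axis); symbols give the replicate number and bars the mean ± SD of 3 libraries. KIF3B is above every siNeg library in all 9 knockdown libraries and KIFAP3 below, while KIF3A overlaps.

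None of the IFT genes passed in a comparison with siNeg. IFT88, an IFT-B subunit needed for cilium assembly, had the most negative changes of the 10 IFT-B genes. It stood at 255, 314 and 228 normalized counts in siNeg, 157, 262 and 199 with siCENPF, 223, 231 and 171 with siFOXM1 and 215, 267 and 173 with both siRNAs. The groups overlap, but within each replicate number every knockdown library was below its siNeg library. Its log2 changes were -0.38, -0.35 and -0.29 (limma adjusted p = 0.0917, 0.0971 and 0.182 with the block). IFT57 stood at 679, 951 and 747 in siNeg, 757, 1108 and 822 with siCENPF, 800, 1063 and 813 with siFOXM1 and 702, 1002 and 820 with both siRNAs. Its groups overlap, with log2 changes of 0.17, 0.17 and 0.09. IFT140 of the IFT-A complex stood at 190, 350 and 201 in siNeg, 201, 380 and 215 with siCENPF, 187, 344 and 250 with siFOXM1 and 234, 391 and 231 with both siRNAs, so the library numbered 2 was high in every group and the groups overlap. IFT27, a GTPase of the IFT-B train, was near the lower limit of the table at 18.7 to 65.7 normalized counts over the 12 libraries.

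BBSome genes carried no call. BBS2 came nearest: it stood at 610, 797 and 681 normalized counts in siNeg, 666, 800 and 733 with siCENPF, 669, 841 and 765 with siFOXM1 and 750, 898 and 765 with both siRNAs, where it was log2 0.21 above siNeg (limma adjusted p = 0.0611 with the block). Its groups overlap. BBS1 had the widest spread, at 26.9, 34.8 and 10.2 in siNeg, 22.3, 34.6 and 20.1 with siCENPF, 18.4, 63.7 and 28.5 with siFOXM1 and 25.8, 57.9 and 33.5 with both siRNAs. Its log2 0.76 with both siRNAs is the largest of the 48 in that comparison and did not pass (adjusted p = 0.166 with the block). BBS10, which helps fold BBSome subunits, stood at 417, 496 and 415 in siNeg, 381, 452 and 305 with siCENPF, 399, 482 and 392 with siFOXM1 and 449, 457 and 430 with both siRNAs. In siCENPF BBS10 was at log2 -0.24 with overlapping groups. BBS12, its relative, was at 78.4 to 163 over all libraries, and ARL6, the GTPase that recruits the BBSome to membranes, at 79.1 to 147.

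Transition zone genes gave 3 of the calls, in both directions and in the fit with the block. TMEM237 (chromosome 2, 201620184 to 201643570, minus strand) is a membrane protein of the zone. Its libraries held 858, 1163 and 983 normalized counts in siNeg, 847, 1263 and 1063 with siCENPF, 701, 883 and 858 with siFOXM1 and 843, 1048 and 880 with both siRNAs. Within each replicate number the siFOXM1 library was the lowest, though siFOXM1 and siNeg overlap. TMEM237 fell by 0.29 on the log2 scale in siFOXM1 against siNeg (limma adjusted p = 0.711 without and 0.00713 with the block) and by 0.37 in siFOXM1 against siCENPF (0.673 and 0.0012). With the block, the first call was lost without siFOXM1 replicate 2, without all libraries numbered 1 and without all numbered 2 (adjusted p = 0.099, 0.0564 and 0.0683).

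TMEM231 and TMEM67, both parts of the Meckel syndrome complex that gates the ciliary membrane, were higher with both siRNAs. TMEM231 (chromosome 16, 75536744 to 75556286, minus strand) had values of 140, 209 and 158 normalized counts in siNeg, 197, 228 and 206 with siCENPF, 193, 234 and 181 with siFOXM1 and 194, 278 and 206 with both siRNAs. The groups overlap through siNeg replicate 2. TMEM231 rose by log2 0.42 (limma adjusted p = 0.639 without and 0.0275 with the block). TMEM67 stood at 110, 129 and 95.5 in siNeg, 134, 160 and 109 with siCENPF, 99.3, 165 and 108 with siFOXM1 and 137, 200 and 132 with both siRNAs, where no library overlapped siNeg. It rose by log2 0.47 (adjusted p = 0.718 without and 0.0406 with the block). Of 15 fits with the block that left out 1 library or all of 1 number, 7 kept the call for TMEM231 and 5 that for TMEM67, at log2 0.35 to 0.47 and 0.39 to 0.55. Both calls were lost without siNeg replicate 1 or 3, without any library of the group with both siRNAs and without all libraries of any number (adjusted p up to 0.162 and 0.238). TMEM67 was also lost without siNeg replicate 2 (0.163) and siFOXM1 replicate 3 (0.0508). All 3 transition zone genes called here also moved with the replicate number: TMEM237, TMEM231 and TMEM67 were log2 0.41, 0.40 and 0.44 higher in libraries numbered 2 than 1 (adjusted p = 4.89e-06, 0.00278 and 0.00576), which the block removes and the fit without it does not.

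The other transition zone genes did not pass. B9D1 stood at 162, 169 and 160 normalized counts in siNeg, 162, 260 and 200 with siCENPF, 202, 199 and 160 with siFOXM1 and 232, 222 and 164 with both siRNAs. CC2D2A stood at 469, 646 and 542 in siNeg, 498, 476 and 590 with siCENPF, 448, 444 and 533 with siFOXM1 and 519, 546 and 588 with both siRNAs. For both genes the groups overlap. RPGRIP1L, a scaffold of the zone, stood at 554, 577 and 510 in siNeg, 469, 527 and 584 with siCENPF, 676, 627 and 583 with siFOXM1 and 626, 687 and 508 with both siRNAs. In siFOXM1 its libraries were all above siNeg (log2 0.20, limma adjusted p = 0.228 with the block). The tectonic genes were close to level: TCTN1 stood at 367, 438 and 318 in siNeg, 402, 450 and 376 with siCENPF, 367, 500 and 379 with siFOXM1 and 445, 499 and 344 with both siRNAs. TCTN3 stood at 1634, 1443 and 1363 in siNeg, 1644, 1623 and 1424 with siCENPF, 1725, 1622 and 1447 with siFOXM1 and 1637, 1567 and 1475 with both siRNAs, with log2 changes of 0.08, 0.11 and 0.08. Over the 13 transition zone genes tested, 9, 9 and 10 stood above 0 in the 3 comparisons.

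At the basal body, TTBK2 separated the groups that received siFOXM1 from siCENPF. This kinase (chromosome 15, 42738734 to 42920809, minus strand) is needed to start cilium assembly. It stood at 324, 409 and 368 normalized counts in siNeg, 343, 337 and 369 with siCENPF, 456, 429 and 466 with siFOXM1 and 395, 516 and 453 with both siRNAs. All siFOXM1 libraries were above all siNeg and siCENPF libraries. TTBK2 rose by log2 0.36 in siFOXM1 against siCENPF (limma adjusted p = 0.43 without and 0.0211 with the block, a comparison in which 7.57% of all genes changed with the block). Against siNeg it was log2 0.30 higher in siFOXM1 and 0.31 higher with both siRNAs, which limma did not call (adjusted p = 0.057 and 0.055 with the block) and edgeR on recovered reads did (0.0489 and 0.0419 with the block). Its exons overlap 26.2% with other annotated genes, mostly on the opposite strand, and the labels do not say whether counting used strand. Of 15 fits with the block that left out a library or a number, 10 kept the call against siCENPF, which was lost without siCENPF replicate 2, siFOXM1 replicate 1 or 3, or all libraries numbered 1 or 3 (adjusted p = 0.0934 to 0.161). CEP41, which supports tubulin modification in the axoneme, stood at 532, 462 and 451 in siNeg, 489, 368 and 405 with siCENPF, 517, 425 and 504 with siFOXM1 and 432, 423 and 476 with both siRNAs, with overlapping groups. CEP164, which docks TTBK2 at the distal appendages, ranged from 832 to 1121 over all libraries, and OFD1 from 231 to 367.

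No Hedgehog gene of the set passed a test between siRNA groups. GLI3, the main source of the GLI repressor, stood at 356, 372 and 313 normalized counts in siNeg, 434, 356 and 393 with siCENPF, 356, 392 and 331 with siFOXM1 and 392, 413 and 397 with both siRNAs. Only with both siRNAs did the libraries all lie above siNeg (log2 0.21, limma adjusted p = 0.207 with the block). GLI2, the main activator, stood at 320, 383 and 414 in siNeg, 355, 264 and 406 with siCENPF, 326, 355 and 399 with siFOXM1 and 379, 301 and 428 with both siRNAs, with overlapping groups. PTCH1, both the receptor and a target of the pathway, was barely detected, at 37.9, 24.6 and 32.8 in siNeg, 27.3, 35.8 and 41.8 with siCENPF, 53.1, 43.2 and 40.2 with siFOXM1 and 43.4, 40.7 and 38.2 with both siRNAs. Both groups that received siFOXM1 were above siNeg in every library, at log2 0.52 and 0.37, and neither passed (adjusted p = 0.244 and 0.443 with the block; interval in siFOXM1 -0.01 to 1.04). Among 30 further Hedgehog genes, the ligand SHH reached 0.00981 FPKM and the target GLI1 stood at 0.0413 to 0.188 FPKM, while the ligand-binding inhibitor HHIP was at 10.0 to 14.4 FPKM. With the block IQCE, which anchors the EVC complex at the ciliary base, rose in siFOXM1 (log2 0.40, adjusted p = 0.00459) and with both siRNAs (0.30, 0.0365), and the cyclin gene CCND1, regulated by many pathways, fell by 0.22 and 0.26 (0.00208 and 0.000454). BCL2 fell by 0.40 with both siRNAs (0.0441). None of the 21 Hedgehog genes tested passed without the block.

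Larger changes were found in other genes of the basal body and of cilium disassembly, from lists of further cilium and Hedgehog genes. Of 118 such genes tested, limma without the block called 0 in siCENPF, 4 lower in siFOXM1 and 3 lower with both siRNAs. Of all genes tested 0.337%, 0.66% and 0.458% were called. The lists were chosen with earlier results of these data known, so these counts cannot test for an excess over all genes. With the block it called 1 higher and 5 lower, 2 and 5, and 3 and 6, which is near or below the 4.52%, 8.72% and 7.9% of all genes. The median change was within log2 0.05 of 0 in each comparison. The 4 genes were CNTRL, SCLT1, NDE1 and NEK2, and 3 of them also fell in siFOXM1 against siCENPF (adjusted p = 0.0115, 0.0193 and 0.00132; NEK2 0.0969, and 5.16e-07 with the block). CNTRL (centriolin), a protein of the mother centriole, stood at 480, 626 and 547 normalized counts in siNeg, 449, 532 and 516 with siCENPF, 211, 266 and 285 with siFOXM1 and 237, 308 and 267 with both siRNAs. It fell by 1.12 on the log2 scale in siFOXM1 and by 1.02 with both siRNAs (limma adjusted p = 0.00293 and 0.00583). On log2(FPKM + 0.5), with the deposited length, CNTRL fell by 0.56 and 0.52 (0.0829 and 0.146). Its mean in siNeg was 0.736 FPKM, a level at which the added 0.5 shrinks a fold change. By edgeR on recovered reads the log2 changes were -1.12 and -1.03 (adjusted p = 0.00354 and 0.00685). SCLT1, a distal appendage protein, stood at 752, 732 and 816 in siNeg, 791, 830 and 716 with siCENPF, 522, 509 and 518 with siFOXM1 and 493, 610 and 562 with both siRNAs. SCLT1 fell by 0.57 in siFOXM1 (adjusted p = 0.0162) and by 0.47 with both siRNAs in limma with the block (0.000499) and in DESeq2 (0.00308), while limma without the block gave 0.0633.

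NDE1 and NEK2 restrain or take apart cilia in dividing cells. NDE1 stood at 670, 795 and 713 normalized counts in siNeg, 664, 684 and 717 with siCENPF, 379, 408 and 416 with siFOXM1 and 423, 437 and 443 with both siRNAs. It fell by 0.85 and 0.74 on the log2 scale (limma adjusted p = 0.000556 and 0.002). NEK2, a kinase of the mitotic program, stood at 1072, 1420 and 1145 in siNeg, 983, 1318 and 1026 with siCENPF, 631, 717 and 667 with siFOXM1 and 541, 830 and 710 with both siRNAs, a fall of 0.84 and 0.82 (0.028 and 0.0461). For all 4 genes the siFOXM1 libraries lay below every siNeg and siCENPF library. The proliferation genes CCNB1 and CCNA2 fell by 0.67 and 0.63 in the same comparison (adjusted p = 0.0113 and 0.0054), and the part of dividing cells in these falls was not tested. With 1 library left out the NEK2 calls without the block were lost in 8 of 12 fits in siFOXM1 and 10 of 12 with both siRNAs, and the SCLT1 call in siFOXM1 in 5 of 12. The NDE1 and CNTRL calls were kept in all 12 in both groups. The SCLT1 call was lost without siNeg replicate 1 or 3 or any siFOXM1 library (adjusted p = 0.0621 to 0.0914). The NEK2 call was lost in siFOXM1 without any siNeg or siFOXM1 library, siCENPF replicate 3 or replicate 3 of the group with both siRNAs. With both siRNAs it was kept only without siCENPF replicate 2 or replicate 2 of that group. For NEK2 the adjusted p reached 0.133 in siFOXM1 and 0.201 with both siRNAs, and on FPKM it was 0.0993 and 0.146.

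**Figure D4:**
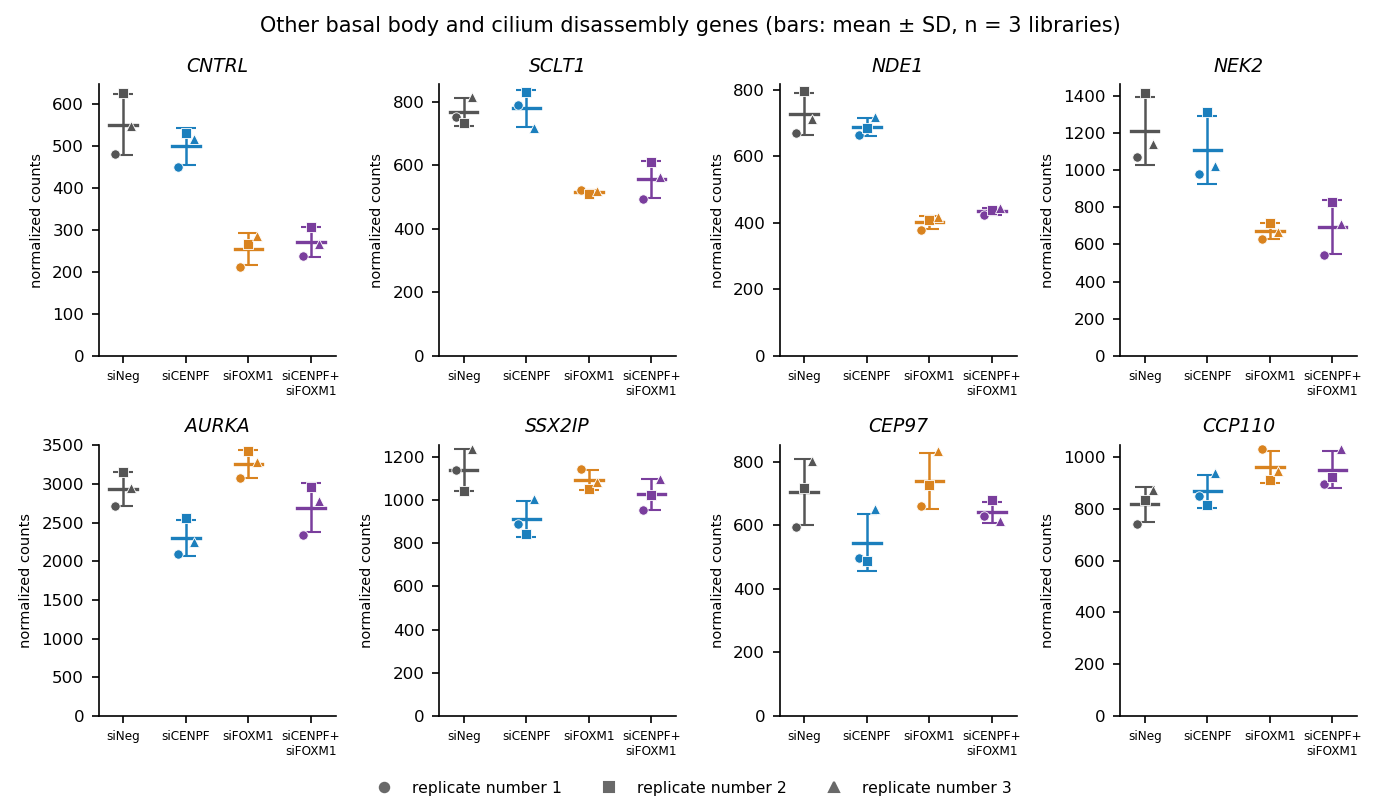
Normalized counts (y axis, from 0) of 8 further basal body and cilium disassembly genes in each library by siRNA group (x axis), with the mean ± SD of 3 libraries. CNTRL, SCLT1, NDE1 and NEK2 are low in both groups that received siFOXM1, and AURKA, SSX2IP and CEP97 have their lowest mean in siCENPF.

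In siCENPF other genes of these lists were lower, by the fit with the block only. AURKA, the kinase that triggers cilium disassembly, stood at 2709, 3157 and 2942 normalized counts in siNeg, 2097, 2562 and 2247 with siCENPF, 3072, 3427 and 3279 with siFOXM1 and 2345, 2957 and 2781 with both siRNAs. AURKA fell by 0.35 on the log2 scale in siCENPF (limma adjusted p = 0.378 without and 5.78e-05 with the block) and differed between siFOXM1 and siCENPF by log2 0.50 (0.063 and 2.39e-07). The centriole cap gene CEP97 fell by 0.37 (0.0129 with the block), SSX2IP by 0.32 (0.00477) and TCHP by 0.25 (0.0164). CCP110, which caps the centriole with CEP97, rose in siFOXM1 by log2 0.24 (0.0432 with the block). The histone demethylase gene KDM3A rose by log2 0.28 with both siRNAs (0.0124), and ARL2BP, an effector of ARL2 and ARL3, by 0.23 in siCENPF (0.0329). RFX and other transcription factors of ciliary genes (7 of 10 tested) gave no call in either fit.

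More of the 48 genes differed between the libraries numbered 2 and the others than between siRNA groups, and the same held for all genes. This comparison was added after the data were seen, and a number's meaning is not given by the labels. In the fit with the block, 21 of the 48 genes were higher in the libraries numbered 2 than in those numbered 1 and 2 were lower (20.3% and 22.2% of all genes tested). The median log2 difference was 0.20 for the 48 genes and 0.00 for all genes, and 36 of the 48 stood above 0. Libraries numbered 3 differed from those numbered 1 for 3 higher and 1 lower (5.99% and 7.82% of all genes), as few as between siNeg and both siRNAs with the block. Against number 2, number 3 had 1 higher and 22 lower (17.3% and 16.2%). These comparisons share libraries. On leaving out 1 library at a time, 16 to 22 of the 48 were called higher in number 2 than 1, and 17 to 23 lower in number 3 than 2. The 3 genes higher in number 3 than 1 ran from 0 without siCENPF replicate 1, and 1 without siNeg replicate 1, siCENPF replicate 3 or siFOXM1 replicate 3, to 5 without siNeg replicate 2 or siCENPF replicate 2.

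IFT and BBSome genes held most of this difference. Of 10 IFT-B genes 7 were higher in number 2 than 1 (median log2 0.36), of 7 BBSome genes 5 (median 0.40) and of 13 transition zone genes 4 (median 0.16). Of 5 motor genes 1 was higher (DYNC2LI1) and of 3 Hedgehog genes 0, though GLI2 was higher in number 3 than 2 (log2 0.35, limma adjusted p = 0.00653). In 11 of the 48 genes all 4 libraries numbered 2 lay above the other 8, and in 0 below (7.94% and 8.8% of all genes). IFT140 stood at 344 to 391 normalized counts in number 2 and 187 to 250 in the rest (log2 0.85 between numbers 2 and 1, limma adjusted p = 6.98e-08). ARL3 stood at 1359 to 1541 against 970 to 1264 (0.50, 1.95e-07), IFT57 at 951 to 1108 against 679 to 822 (0.49, 2.16e-07), and TTC8, a BBSome subunit, at 372 to 472 against 268 to 361 (0.51, 5.67e-05). BBS5 and CEP41 were the 2 lower genes (-0.47 and -0.23). KIF3B differed by -0.02 between numbers 2 and 1, and its rise was seen within each number (log2 0.35, 0.37 and 0.46 in siFOXM1). Of the 11 genes with X-box letters 5 were higher in number 2 than 1, and of the 33 others with a promoter entry 14.

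Other measures moved with the numbers too. The 13 mitochondrially encoded mRNAs were lower in number 2 than 1 (median log2 -0.43) and in number 3 than 1 (-0.31), and the 12 proliferation genes had medians of 0.18 and 0.19. Of 118 further cilium and Hedgehog genes, 47 were higher and 17 lower in number 2 than 1, where 20.3% and 22.2% of all genes were. Reads in genes were 13671250 to 16079871 in number 1, 13681255 to 15801838 in number 2 and 17018969 to 35411230 in number 3. Within number 3 they differed by siRNA: 35411230 in siNeg, 31302177 in siCENPF, 17968360 in siFOXM1 and 17018969 with both siRNAs. The part of these measures in the difference between numbers, and of depth in differences between siRNA groups, was not tested.

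**Figure D5:**
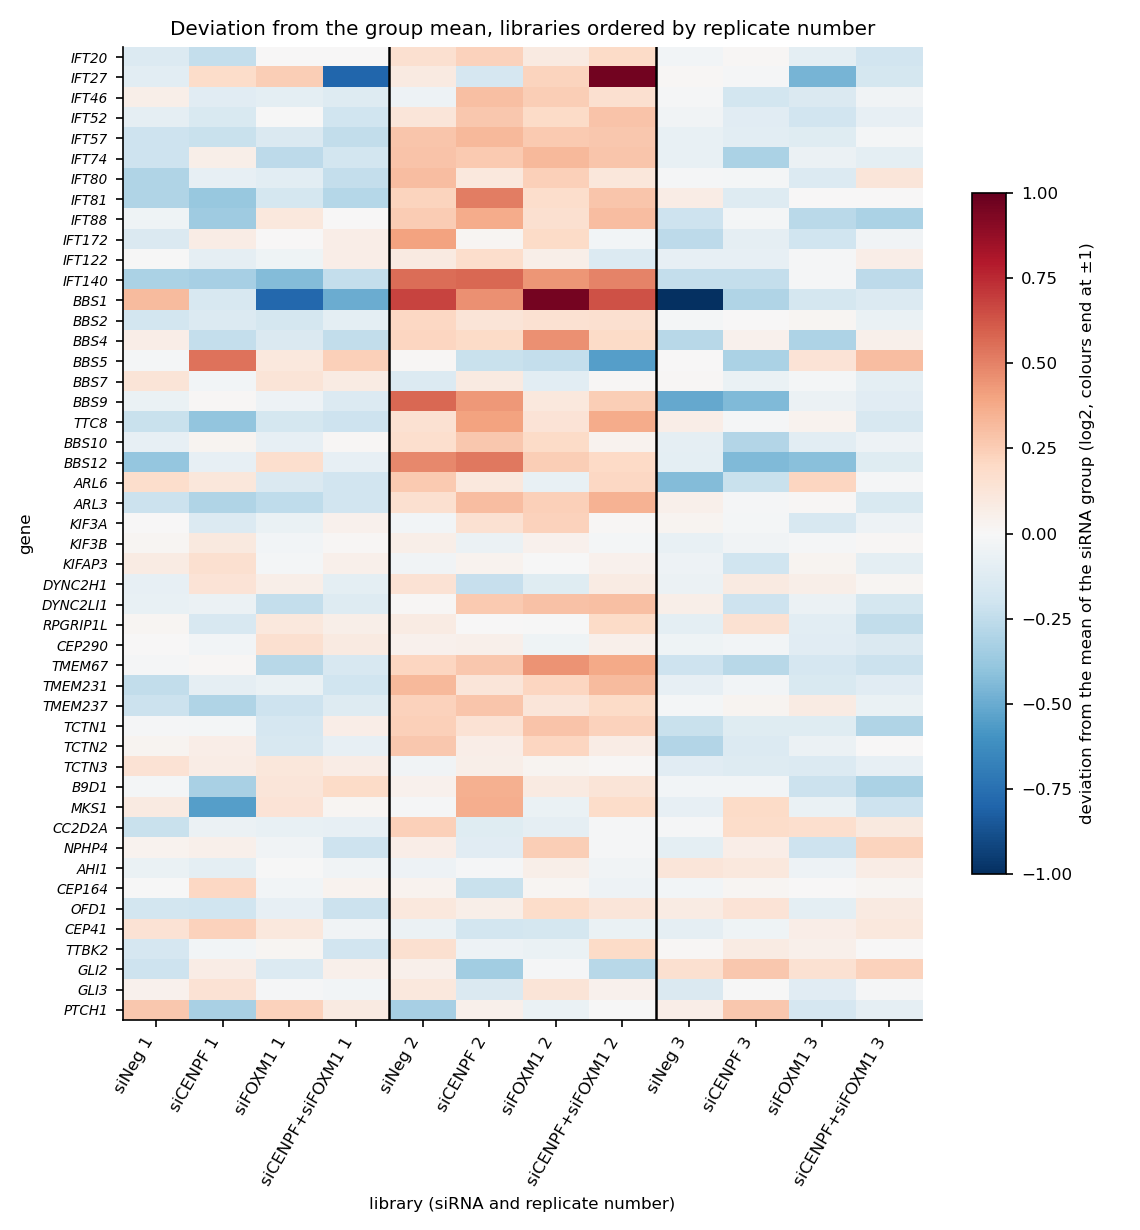
Deviation of each library from the mean of its siRNA group (log2, red above and blue below, colours ending at ±1) for 48 genes (rows) in 12 libraries ordered by replicate number (columns). The median deviation is 0.13 to 0.16 in the 4 libraries numbered 2 and below 0 in the other 8.

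A pair of 7-base words, chosen with earlier results of these data known, was searched in 3' UTRs of GENCODE v29. The word AGCAACC was in the 3' UTR of 3 of the 48 genes (ARL6, BBS1 and TTC8; 6.25%), against 8.90% of 11803 genes searched. The word AGCGCTA was in 0 of 48 (1.19% of genes). KIF3B, TMEM237, KIFAP3, TMEM231 and TMEM67 hold neither.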

How the data were processed

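Normalized counts, FPKM, and edgeR tables with CPM, log2 fold changes, likelihood ratio scores and p-values were deposited by the authors. The normalized counts (a signal scaled by the authors) sum to 18504200 to 19762100 per library; the sources here do not give their method, and they differ from CPM times 1 factor per library by up to 15.1% for 99 of 100 genes. Per the submitters' processing notes, reads went through bcl2fastq, Trimmomatic, TopHat and edgeR with hg38, with no versions. The deposited FPKM use a gene length equal to the sum of all exon records of all isoforms for 80.7% of 14398 genes (35 of the 48), longer than the merged exons for 83.5%, so levels between genes were recomputed from reads over merged exons of GENCODE v29. Whole reads were recovered from FPKM and the deposited length, with library totals taken from the deposited CPM (14556 genes, 100% whole within 0.01 reads). The same reads followed from CPM at all 169800 values compared.

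The 48 genes were found by symbol. The members and all lists were chosen with earlier results of these data known. The main test was limma 3.58.1 in R 4.3.3 (trend and robust moderation, two-sided) on log2(normalized count + 1) over 12 libraries and 4 group means, for 14857 genes reaching 10 normalized counts in 3 or more libraries, with Benjamini-Hochberg adjustment over all of them and a threshold of 0.05. Fold changes are on that scale. Contrasts between replicate numbers and levels per merged exon length were added after the data were seen. Promoters came from RefSeq (GRCh38.p14). The script was tested on simulated data. Alternatives were the replicate number as a block, a pseudocount of 8, no filter, limma on log2(FPKM + 0.5), edgeR 4.0.16 and DESeq2 1.42.0 on recovered reads, only the groups compared, and leaving out libraries. Libraries of 1 number deviated together: their deviations from group means correlated at 0.272 to 0.639 in 18 pairs. In 36 pairs of different numbers the correlations were -0.510 to 0.0248. Deviations sum to 0 within a group of 3, so the second range follows in part from the first and is no separate evidence. The numbers were taken to pair the libraries, and values with the block stand beside results whose call they change. Reads allow no finer reading of genes near 10 normalized counts.

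Genes with values of every library were those passing without the block against siNeg, up to 20 more with the smallest adjusted p with the block, and GLI2, GLI3, PTCH1 and SMO. In each role group the genes highest and lowest in FPKM were named. Of further genes, those passing without the block were named, and up to 3 per list with the block in each comparison against siNeg. KIF3A, DYNC2H1, OFD1 and the genes named for replicate numbers were chosen after their values were seen. No column of an unmapped sample was found.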

Additional observations from a re-analysis of the deposited data

Results flagged for a closer look

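KIF3B responded to both siRNAs together by less than the sum of its single responses. The interaction term with the replicate number as a block was -0.41 (limma adjusted p = 0.00851; 0.818 without the block), and it was listed because the effect of one siRNA differed with the other by a test of the difference itself. It passed in 11 of 15 fits with the block that left out a library or a replicate number. It was lost without siFOXM1 replicate 2 (adjusted p = 0.0575), without the combined-siRNA replicate 2 (0.0524), without the libraries numbered 1 (0.241) and without those numbered 3 (0.173). CENPF itself was log2 0.55 higher with both siRNAs than in siCENPF (limma adjusted p = 0.0619 without and 0.000188 with the block). Its own interaction term was 0.70 (0.221 and 0.00112), so the knockdown of CENPF was weaker where both siRNAs were given. The part of this in the KIF3B interaction, and the cause of that interaction, were not tested.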

How the results depend on the processing

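The replicate block moved the number of the 48 genes called from 0 to 1 in siCENPF, 1 to 2 in siFOXM1, 0 to 4 with both siRNAs, 0 to 2 in siFOXM1 against siCENPF and 0 to 1 for the interaction. It left 0 with both siRNAs against siCENPF and against siFOXM1. With edgeR and the block the counts were 1, 3, 5, 2, 1 for both siRNAs against siCENPF, and 1 for the interaction. DESeq2 gave 1 in siCENPF and 1 with both siRNAs. Fitting only the groups compared gave 0 in siFOXM1. With libraries left out, the counts ran from 0 to 2 in siCENPF, 0 to 3 in siFOXM1, 0 to 6 with both siRNAs, 0 to 3 in siFOXM1 against siCENPF, 0 to 1 with both siRNAs against siCENPF and 0 to 1 for the interaction. Pseudocount, filter and FPKM changed none of these counts. The calls on KIF3B, KIFAP3, TMEM67, TMEM231, TMEM237, TTBK2, NDE1, NEK2, CNTRL and SCLT1 kept their direction under each alternative run for them (none on FPKM for TMEM67); the other named genes were not recomputed with libraries left out. Over all genes, calls with the block were 671, 1295 and 1174 against siNeg, where the fit without it made 50, 98 and 68; edgeR on recovered reads made 49, 99 and 68 (708, 1323 and 1244 with the block), DESeq2 135, 244 and 166, and fits of only the groups compared 6, 40 and 36. The cause of these differences was not tested. Where a library was left out of a group without the block, 2 libraries remained. PTCH1, BBS1 and IFT27 had the fewest reads, and their intervals are the widest of the 48.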
